A study of Mus musculus with 6 samples.

Results

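The loci of 10 genes of the TGF-beta and BMP pathways were followed in chromatin accessibility data (ATAC-seq) from mouse intestinal crypts. The genes were Tgfbr1, Tgfbr2, Bmpr1a, Smad2, Smad3, Smad4, Smad7, Id1, Id3 and Tgif1, chosen by name as receptors, signal transducers and targets of the pathways. A peak belonged to a locus when its summit lay in the gene body or within 20 kb of it in GRCm38, with genes from GENCODE M21, the equivalent of Ensembl 95. After peaks sharing at least 1 base were merged across samples into consensus peaks, 98 of 71286 consensus peaks lay in the 10 loci. A consensus peak was counted when the summit of at least 1 of its peaks lay in the locus. Its own summit, the median over the lists, can thus lie just outside.

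The series held 6 samples, 3 labelled Arid3a WT and 3 labelled Arid3a conditional knockout (cKO), and 1 peak list per sample. The cKO mice were VillinCre-ERT2+/-; Arid3a fl/fl, in which tamoxifen activates Cre only in Villin-expressing intestinal epithelium. Both genotypes received tamoxifen on 3 days in a row and were killed 1 month after the first injection. The Cre status of the WT animals, their age and whether animals were pooled are not given in the sources used here, so p-values measure the spread between these samples. The comparison asks whether accessibility differs when the epithelium lacks ARID3A, a transcription factor that binds A+T-rich DNA.

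TGF-beta binds the type II receptor encoded by Tgfbr2, which activates the type I receptor encoded by Tgfbr1, which in turn phosphorylates SMAD2 and SMAD3. BMP ligands signal through type I receptors such as the product of Bmpr1a to another set of SMADs, and both branches use SMAD4 as a shared partner. SMAD7 is an inhibitory SMAD induced by the signal itself, TGIF1 is a homeodomain corepressor that binds SMADs, and Id1 and Id3 encode helix-loop-helix inhibitors that are classical BMP targets. In the intestine, BMP signalling is high towards the villus and restrains stem and progenitor cells in the crypt.

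SMAD complexes bind CAGAC, and BMP-regulated SMADs also bind the GC-rich element GGCGCC. Id1 and Id3 are the textbook readouts of BMP signalling, so the 201 bp around the summits of their promoter peaks are shown, on the plus strand of GRCm38, with CAGAC, its reverse complement GTCTG, and GGCGCC in capitals. The first peak of Id1 had its summit 1090 bp upstream of the annotated start and the second 62 bp downstream of it, and the summit of the Id3 peak lay 66 bp from the nearest annotated Id3 start.
Id1 upstream promoter peak, chr2:152735061-152735261: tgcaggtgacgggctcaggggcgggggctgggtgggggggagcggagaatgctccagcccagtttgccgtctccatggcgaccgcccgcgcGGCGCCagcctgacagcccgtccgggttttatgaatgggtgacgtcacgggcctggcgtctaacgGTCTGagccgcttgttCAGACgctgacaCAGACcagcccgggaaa
Id1 start-site peak, chr2:152736213-152736413: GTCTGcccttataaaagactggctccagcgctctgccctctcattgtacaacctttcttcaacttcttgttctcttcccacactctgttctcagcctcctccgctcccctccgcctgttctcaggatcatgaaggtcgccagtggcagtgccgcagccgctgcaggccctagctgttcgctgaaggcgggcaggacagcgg
Id3 promoter peak, chr4:136143698-136143898: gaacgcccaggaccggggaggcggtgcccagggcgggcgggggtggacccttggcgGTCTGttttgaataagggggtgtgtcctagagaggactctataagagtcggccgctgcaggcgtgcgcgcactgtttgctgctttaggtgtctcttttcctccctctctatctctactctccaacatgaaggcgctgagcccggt
The upstream Id1 window held 3 copies of CAGAC and 1 of GGCGCC, the Id1 start-site window 1 CAGAC, and the Id3 window 1 CAGAC. Such matches describe the letters in a window and do not show that a factor was bound.

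The lists held 40492, 50704 and 55091 peaks in WT and 58297, 46415 and 51464 in cKO. Read totals are not in the lists, so the depth of each library is unknown. In bulk crypt cells, a site open in fewer cells and one less open in each cell cannot be told apart. The background level that the peak caller used as its floor was 2.11, 1.82 and 2.01 in WT and 2.29, 1.75 and 2.18 in cKO. It was thus highest in cKO 1 and cKO 3 and lowest in cKO 2. Promoter peaks of 9 of 10 epithelial marker genes were called in every list, all but Muc2. Of the stromal markers, Col1a1 and Pdgfra were called in every list and Des in 3 lists, and Kdr of 4 endothelial and Cd68 of 8 immune markers were called throughout. Arid3a itself had a promoter peak in all 6 lists, at fold percentiles of 64.7, 61.1 and 54.4 in WT and 46.5, 56.7 and 43.7 in cKO. A promoter peak does not test the deletion, since the deleted exons are not given in the sources used here.

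Peaks were compared by their fold enrichment over local background, ranked within each list and given as a percentile from 0 to 100, where 100 is the peak of highest fold in that list. A peak was called a promoter peak when it shared a base with the window from 1000 bp upstream to 100 bp downstream of an annotated start. Of the 98 consensus peaks at the 10 loci, 16 were promoter peaks of the gene, 4 were promoter peaks of another gene and 78 were distal. Their summits fell inside the gene itself in 42 cases, between genes in 44 and inside another gene in 12. Tgfbr2, Bmpr1a, Smad3 and Id1 had other protein-coding genes in the 20 kb flanks, so a distal peak cannot be assigned to the named gene alone.

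The mean number of peaks at the loci was close in the genotypes, and slightly lower in cKO relative to the length of the lists. WT lists held 61, 69 and 77 peaks at the 10 loci and cKO lists 78, 61 and 67, which is 69 ± 8 against 68.7 ± 8.62 (SD, n = 3). Promoter peaks numbered 16, 15 and 16 in WT and 15 in each cKO list, and distal peaks 50 ± 7 and 50 ± 8.19. The shortest list of each genotype, WT 1 and cKO 2, gave the fewest peaks. Per 1000 peaks of the list, the loci held 1.51, 1.36 and 1.40 in WT and 1.34, 1.31 and 1.30 in cKO. On that scale every cKO list was below every WT list, with 1.42 ± 0.0757 against 1.32 ± 0.0183 (SD, n = 3). The gap was narrow, with 1.36 in WT 2 and 1.34 in cKO 1. How often other sets of loci separate on this scale was not examined.

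Loci differed strongly from one another. Tgfbr1 had a single peak, at its promoter, in a window of 102 kb, which is 0.983 consensus peaks per 100 kb. Tgif1 and Id1, short genes, had 24.3 per 100 kb each. The median over the 10 genes was 11.7 per 100 kb, beside 5.20 over 21938 protein-coding genes, of which the middle 50% ran from 1.59 to 9.54. The peak number overlapped between genotypes at all 10 loci, and over 17706 protein-coding genes with a peak the share that did not overlap was 1.51%. Id3 came closest, with 9, 8 and 8 peaks in WT and 8, 6 and 5 in cKO (exact two-sided permutation test over samples, p = 0.3, where the smallest possible is 0.1). Bmpr1a had 4, 7 and 11 peaks in WT and 11, 6 and 11 in cKO, a spread as wide within WT as between genotypes.

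**Figure D1:**
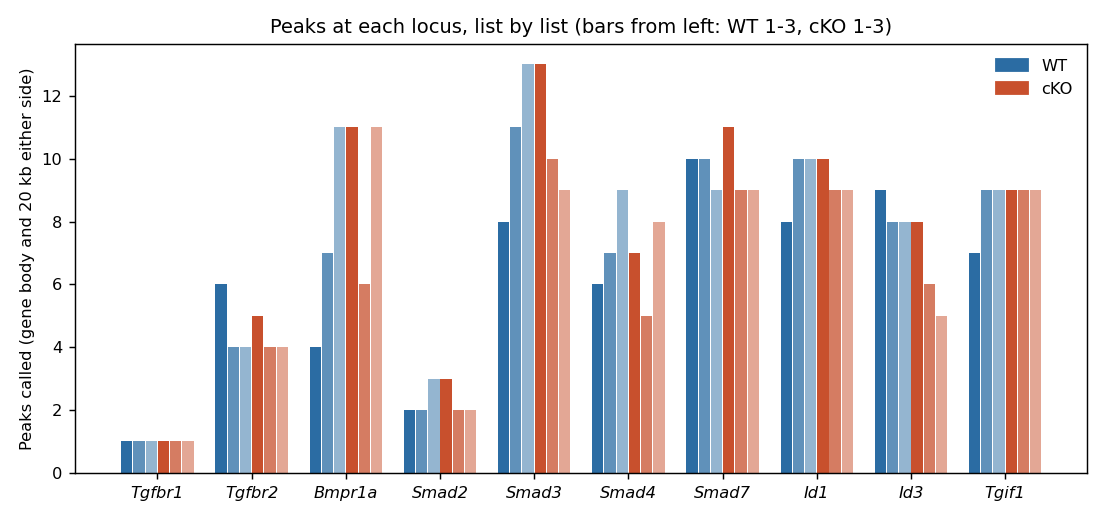
Number of peaks called at each locus (gene body and 20 kb either side), 1 bar per list, WT in blue and cKO in orange, 1 to 3 from dark to light. The bars of the genotypes overlap at all 10 loci, from 1 peak in every list at Tgfbr1 to 13 in WT 3 and cKO 1 at Smad3.

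Of the 98 consensus peaks, 44 were called in all 6 lists (44.9%, beside 45.9% of all consensus peaks) and 20 in 1 list only. No peak at the loci was called in all WT and in no cKO list, beside 0.111% of all consensus peaks. The opposite pattern held for 1 of 98 (1.02%), beside 0.464% of all consensus peaks. This peak lay in an intron of Bmpr1a, 14300 bp downstream of the gene's start. Its fold percentiles were 24.7, 33.9 and 4.67 in cKO, so it ranked in the lower part of each list, and the coverage at its summit was 32, 16 and 19. The neighbouring consensus peak in the same gene, 13244 bp downstream of the start, was called in WT 1, WT 3, cKO 1 and cKO 3. The stretch around the peak was thus not open in cKO lists alone. A further 13 peaks were called only in WT and 9 others only in cKO, each in 1 or 2 lists. The share of all consensus peaks in each of these directions is not given here. Whichever the genotype, peaks called in 1 list were 20.4% at the loci, beside 20.9% of all consensus peaks. Those called in 2 lists were 7.14%, beside 9.21%. Because the Bmpr1a peak was the only one called in every list of one genotype and in none of the other, the 201 bp around its summit are shown with the same capitals.
Bmpr1a intron peak, chr14:34488941-34489141: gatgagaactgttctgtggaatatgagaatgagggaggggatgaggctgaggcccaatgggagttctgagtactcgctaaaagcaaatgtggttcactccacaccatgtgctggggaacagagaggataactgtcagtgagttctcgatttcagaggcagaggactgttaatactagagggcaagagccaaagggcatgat
The window holds neither CAGAC nor GGCGCC. The WT lists give no value there, since a list holds only what passed the caller's threshold, and the peak was lost from the count when a stricter threshold or lists of equal length were used.

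Every member had a promoter peak in all 6 lists, and the promoter peak with the highest median fold percentile was taken for each. Those of the receptors lay at chr4:47352394-47353958 for Tgfbr1, chr9:116174328-116176157 for Tgfbr2 and chr14:34501989-34503420 for Bmpr1a. Those of the SMADs lay at chr18:76240760-76242535 for Smad2, chr9:63757221-63758735 for Smad3, chr18:73702862-73704445 for Smad4 and chr18:75366411-75367925 for Smad7. The rest lay at chr2:152734444-152735474 for Id1, chr4:136143367-136145174 for Id3 and chr17:70845104-70846477 for Tgif1. The Tgif1 peak lay near an internal annotated start, with its summit 7750 bp downstream of the gene's start. Another Tgif1 promoter peak, with its summit 740 bp from the gene's start, had a lower median fold percentile, 24.9.

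Among the receptors, Tgfbr1 ranked highest, with fold percentiles of 96.6, 93.2 and 93.4 in WT and 89.4, 94.7 and 80.6 in cKO. The genotypes overlapped, and 1 list, cKO 3, stood below the other 5. Tgfbr2 stood at 79.3, 70.6 and 81.5 in WT and 69.5, 76.0 and 59.6 in cKO, again with cKO 3 lowest. Bmpr1a stood at 65.8, 72.8 and 69.6 in WT and 52.5, 70.3 and 51.0 in cKO. There cKO 1 and cKO 3 were below all WT lists while cKO 2 lay among them.

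Smad2, a receptor-activated transducer of TGF-beta, was the only member whose promoter had a higher mean in cKO, with 89.4, 86.4 and 82.6 in WT and 86.9, 92.3 and 92.3 in cKO. These ranges overlapped, and the difference of 4.42 percentile points had an exact permutation p of 0.2. Smad4, the shared partner, stood at 88.8, 85.0 and 90.2 in WT and 76.5, 89.2 and 83.4 in cKO. Smad3 varied most among the SMAD promoters, with 65.9, 73.1 and 56.1 in WT and 45.2, 73.3 and 30.2 in cKO. For Smad3, cKO 2 and WT 2 were the highest lists and cKO 3 the lowest.

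The inhibitor Smad7 and the targets and corepressor ranked lower. The highest promoter peak of Smad7 had fold percentiles of 47.3, 54.3 and 50.7 in WT and 31.0, 54.0 and 37.8 in cKO. Id3 stood at 61.2, 47.1 and 39.9 in WT and 21.6, 57.7 and 19.5 in cKO. The upstream Id1 promoter peak, the window with 3 CAGAC copies shown above, stood at 15.4, 25.2 and 22.3 in WT and 7.05, 37.9 and 7.24 in cKO. In both Id genes cKO 1 and cKO 3 were below every WT list, while cKO 2 was inside the WT range for Id3 and above it for Id1. The Id1 start-site peak stood at 23.1, 11.3 and 11.5 in WT and 4.32, 21.1 and 5.22 in cKO, below the upstream peak in all lists but WT 1.

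By median over the lists, the order from high to low was Tgfbr1, Smad2, Smad4, Tgfbr2, Bmpr1a, Smad3, Smad7, Tgif1, Id3 and Id1, with medians from 93.3 to 18.9. Each gene's range over the 6 lists overlapped that of the next in this order at all 9 steps, so neighbours did not differ beyond their spread. The lowest Tgfbr1 value, 80.6, was still above the highest Id1 value, 37.9.

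**Figure D2:**
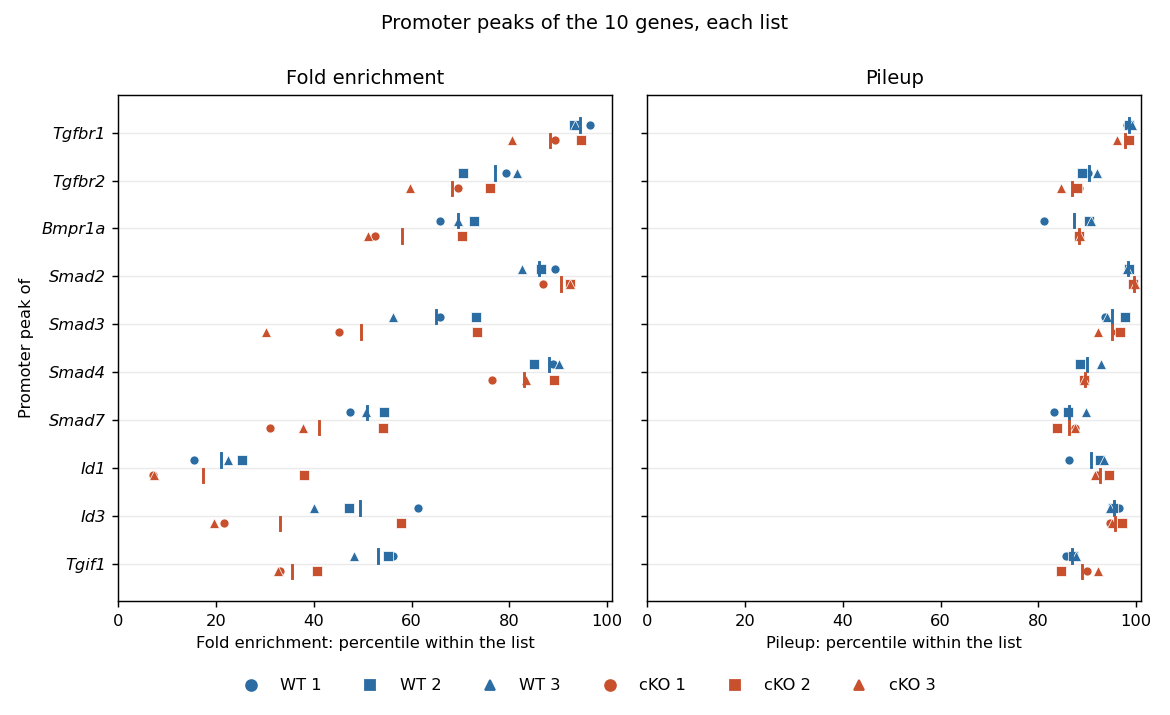
Within-list percentile of fold enrichment (left) and of coverage at the summit, or pileup (right), for 1 promoter peak per gene, with a marker per list (circle, square and triangle for lists 1, 2 and 3), WT in blue and cKO in orange, and a bar at the mean of 3 lists. Fold percentiles run from 7.05 at Id1 to 96.6 at Tgfbr1, while pileup percentiles of the same peaks all lie between 81.1 and 99.7.

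Fold and coverage gave different pictures of the same promoters. Fold is the coverage at the summit divided by a background that the caller takes from the surrounding bases, each with 1 added. Because the lists give fold and a Poisson p-value for each peak, both terms could be recovered, with coverage at the summit a whole number within 0.01 for 100% of peaks. By coverage, all 10 promoters were high, with median pileup percentiles from 86.8 for Smad7 to 99.0 for Smad2. Id3, ninth by fold, had coverage percentiles between 94.6 and 97.1, and Id1 between 86.2 and 94.5.

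The Id genes, lowest by fold, had the highest local background of the 10. At the upstream Id1 promoter peak coverage was 76, 152 and 192 in WT and 225, 135 and 162 in cKO, and local background was 20.6, 33.7 and 45.5 in WT and 71.4, 26.1 and 49.8 in cKO. That background was a median of 20.5 times the list's lowest level, beside 17.4 times at Id3, 10.8 times at Smad2, which ranked high by fold, and 5.94 times at Smad4, the lowest. The part of local background in the fold ranks was not tested.

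Over the 10 promoters together, the mean fold percentile was 66.6, 66.3 and 63.5 in WT and 51.3, 68.6 and 49.4 in cKO, or 65.4 ± 1.73 against 56.4 ± 10.6 (SD, n = 3). It was lower in cKO by a mean of 9.01 percentile points, with 9 of 10 genes lower, but cKO 2 lay above all WT lists, and without it the difference was -15.1. The promoters of the epithelial markers were also lower in mean in cKO for 8 of 9, with a median difference of -9.28. Epcam, Krt19 and Cdx2, 3 of 9, were lower without overlap and 0 were higher, beside 8.82% and 3.48% of all promoter peaks. These marker values are by fold, and their coverage percentiles are not given here. The single endothelial marker called in every list, Kdr, stood at 12.1, 58.8 and 40.4 in WT and 73.1, 68.2 and 45.6 in cKO, with overlap. The other non-epithelial markers called in every list went both ways, all with overlap. Their differences were 5.54 at Col1a1, -4.26 at Pdgfra and -5.23 at Cd68, beside 25.2 at Kdr. The part of cell composition in these values was not tested. Over all 14644 promoter peaks called in every list the difference was -1.13, and 59.3% were lower in cKO. By coverage percentile the same 10 promoters had means of 91.9 ± 1.58 in WT and 92.1 ± 0.364 in cKO, with 5 of 10 lower in cKO. Local background at the 10 promoters, over each list's lowest level, averaged 5.90, 10.3 and 12.5 in WT and 17.2, 8.65 and 13.4 in cKO. The pair of lists with the lowest mean fold percentile, cKO 1 and cKO 3, thus had the highest local background, and the ratio over all promoters was also highest there, at 7.80 and 6.26, beside 3.21 to 5.79 in the other lists.

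**Figure D3:**
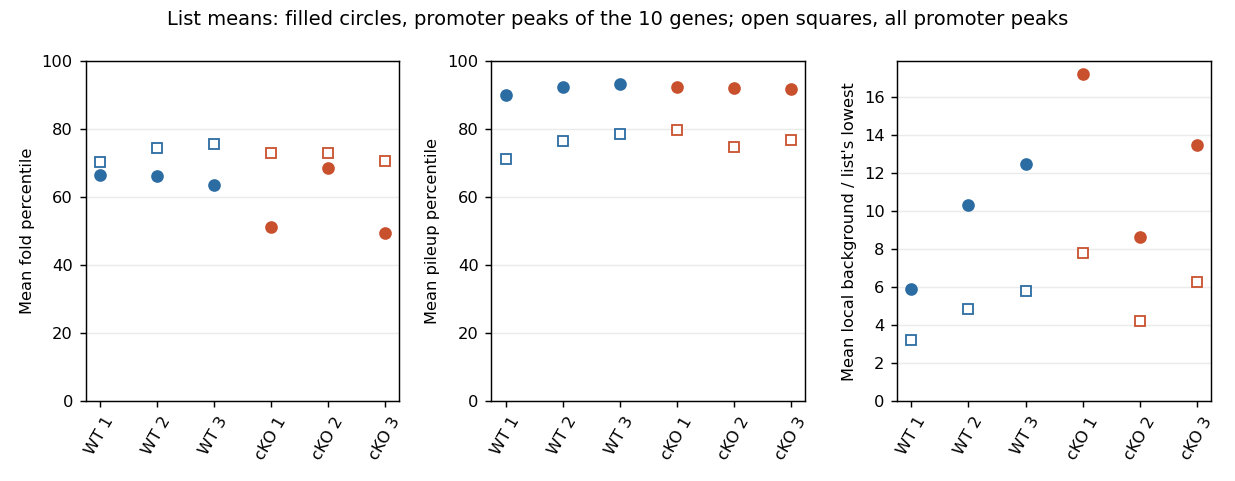
List means of fold percentile, of pileup percentile, and of local background over the list's lowest background, for the promoter peaks of the 10 genes (filled circles) and for all 14644 promoter peaks (open squares), WT in blue and cKO in orange. The filled circles fall to 51.3 and 49.4 in cKO 1 and cKO 3 on the left, stay between 90.2 and 93.2 in the middle, and reach 17.2 in cKO 1 on the right.

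Differences between genotypes were tested with limma on normal scores of the within-list rank, over all 32748 consensus peaks called in every list. None passed an adjusted p of 0.05 (0% of all peaks tested, and 0 of the 44 at the loci), and the smallest adjusted p was 0.776. Without adjustment, 6 of the 44 peaks (13.6%) had p below 0.05, beside 6% of all peaks. Ranked by coverage in place of fold, 1 of 44 (2.27%) had, beside 3.46% of all peaks. This was the Smad2 promoter (limma on coverage rank, unadjusted p = 0.00744 and adjusted p = 0.998). Its coverage percentiles were 98.5, 98.5 and 98.1 in WT and 99.4, 99.4 and 99.7 in cKO. Mean fold percentile was lower in cKO for 30 of 44 peaks (68.2%), beside 50.7% of all peaks. By coverage percentile it was lower in cKO for 15 of 44 (34.1%), beside 28.6% of all peaks.

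Counting peaks whose WT and cKO percentiles did not overlap, 1 of 44 was higher in cKO (2.27%) and 3 of 44 were lower (6.82%), beside 4.66% and 7.04% of all peaks. Both shares were below the background. Without cKO 2, 26 of 47 peaks did not overlap, 4 higher (8.51%) and 22 lower (46.8%), beside 17.3% and 20.9% of all peaks. Without WT 1, 12 of 50 did not overlap, 3 higher (6%) and 9 lower (18%), beside 6.37% and 15.2% of all peaks. By coverage percentile, 4 of 44 were higher in cKO (9.09%) and 1 was lower (2.27%), beside 6.45% and 1.40% of all peaks. By coverage the higher peaks were the Smad2 promoter, the Smad3 upstream peak described next, a distal Id1 peak and another Tgif1 peak, and the lower one was the Tgfbr2 promoter.

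**Figure D4:**
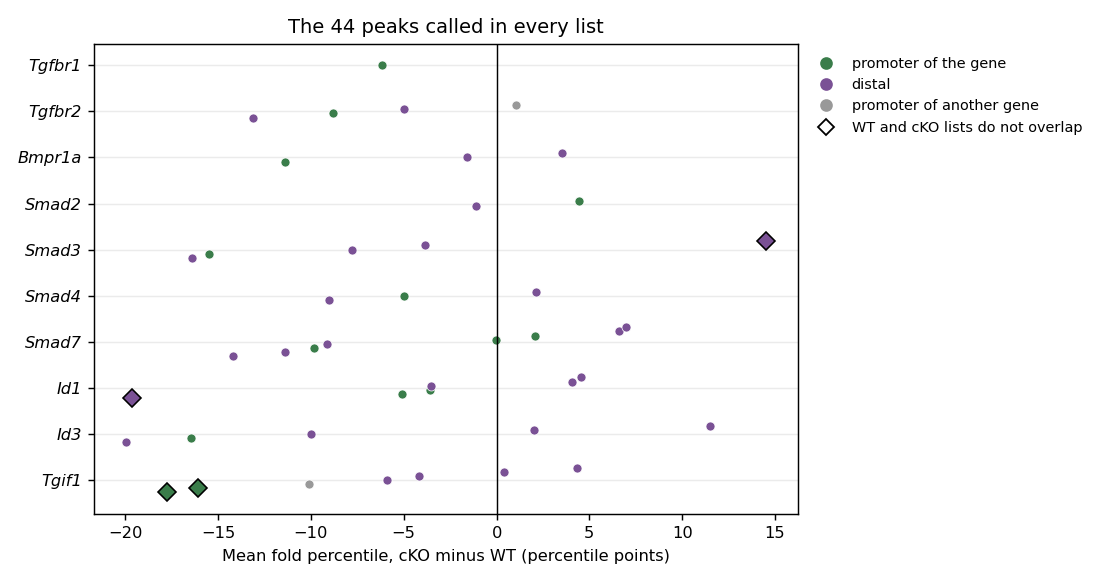
Difference in mean fold percentile, cKO minus WT in percentile points, for each of the 44 peaks called in every list, 1 point per peak, a row per gene, coloured green for promoter, purple for distal and grey for the promoter of another gene. Diamonds mark the 4 peaks whose 3 WT and 3 cKO values do not overlap, from -19.6 at Id1 to 14.5 at Smad3, and 30 of 44 points lie left of 0.

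The peak higher in cKO lay 17104 bp upstream of Smad3, between genes, at chr9:63774586-63775868. Its fold percentiles were 64.1, 74.1 and 73.3 in WT and 87.3, 81.2 and 86.6 in cKO, so every cKO list was above every WT list. The difference was 14.5 percentile points (exact permutation p = 0.1, the smallest possible, and limma adjusted p = 0.776). Its coverage percentiles did not overlap either, at 54.0, 67.6 and 68.4 in WT and 76.4, 70.1 and 70.5 in cKO. Local background was low, from 3.98 to 8.94. Among the peaks at the loci, it was the only one that separated the genotypes in the same direction by fold and by coverage. The share of all consensus peaks that do so is not given here. By coverage the difference was 8.96 percentile points (limma on coverage rank, unadjusted p = 0.129 and adjusted p = 0.998). Over all distal peaks coverage percentile was also higher in cKO, by a mean of 3.63 percentile points. The Smad3 promoter itself went the other way by fold, with a mean lower by 15.5 percentile points in cKO and overlapping lists.
Smad3 upstream peak, chr9:63774998-63775198: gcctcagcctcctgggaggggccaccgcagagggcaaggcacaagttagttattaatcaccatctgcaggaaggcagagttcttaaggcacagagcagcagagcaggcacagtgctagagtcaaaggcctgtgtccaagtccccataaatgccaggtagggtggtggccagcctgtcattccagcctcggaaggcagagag
The 201 bp around its summit are printed because this peak separated the genotypes on both measures, and they hold no CAGAC or GGCGCC.

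The 3 peaks lower in cKO were 2 promoter peaks of Tgif1 and a distal peak near Id1. The Tgif1 promoter peak taken for the gene lay in an intron, 530 bp from the nearest annotated Tgif1 start and 7750 bp downstream of the gene's start. It had fold percentiles of 56.2, 55.1 and 48.2 in WT and 33.1, 40.6 and 32.5 in cKO. The difference was -17.7 percentile points (exact permutation p = 0.1, and limma adjusted p = 0.776). A broader Tgif1 promoter peak, at chr17:70850654-70853494, had its summit 740 bp from the gene's start. Its fold percentiles were 32.3, 33.5 and 27.9 in WT and 15.3, 21.9 and 8.27 in cKO. For both, every cKO list was below every WT list, including cKO 2. By coverage the genotypes overlapped, between 84.7 and 92.2 for the first and between 88.1 and 93.9 for the second.

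The distal Id1 peak lay 5394 bp downstream of the Id1 start, past the short gene, at chr2:152741402-152742115. It had fold percentiles of 27.3, 43.2 and 28.1 in WT and 10.7, 20.7 and 8.32 in cKO, a difference of -19.6. Its limma p of 0.0112 before adjustment was the smallest at the 10 loci by fold rank. Its coverage percentiles overlapped, at 85.4, 94.9 and 91.6 in WT and 90.5, 84.7 and 86.9 in cKO. Local background was high at all 3 of these peaks, between 12.3 and 65.4. The windows of the 3 peaks are shown for comparison with the Id1 and Id3 promoters, with the same capitals.
Tgif1 intron promoter peak, chr17:70845696-70845896: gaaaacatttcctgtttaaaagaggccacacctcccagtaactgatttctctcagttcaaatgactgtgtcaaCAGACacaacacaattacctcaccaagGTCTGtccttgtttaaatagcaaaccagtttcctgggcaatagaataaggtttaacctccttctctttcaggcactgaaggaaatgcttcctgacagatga
Tgif1 broad promoter peak, chr17:70852706-70852906: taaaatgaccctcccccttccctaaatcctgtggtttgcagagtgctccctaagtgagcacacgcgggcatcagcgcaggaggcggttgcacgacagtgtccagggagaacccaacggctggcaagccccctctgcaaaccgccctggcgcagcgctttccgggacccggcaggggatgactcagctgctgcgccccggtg
Id1 downstream peak, chr2:152741545-152741745: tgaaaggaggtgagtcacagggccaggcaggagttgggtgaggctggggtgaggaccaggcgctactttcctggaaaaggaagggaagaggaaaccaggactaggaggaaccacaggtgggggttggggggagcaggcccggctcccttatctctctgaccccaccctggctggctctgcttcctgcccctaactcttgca
Of these, the Tgif1 intron window held 2 copies of CAGAC and the other windows held neither CAGAC nor GGCGCC.

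**Figure D5:**
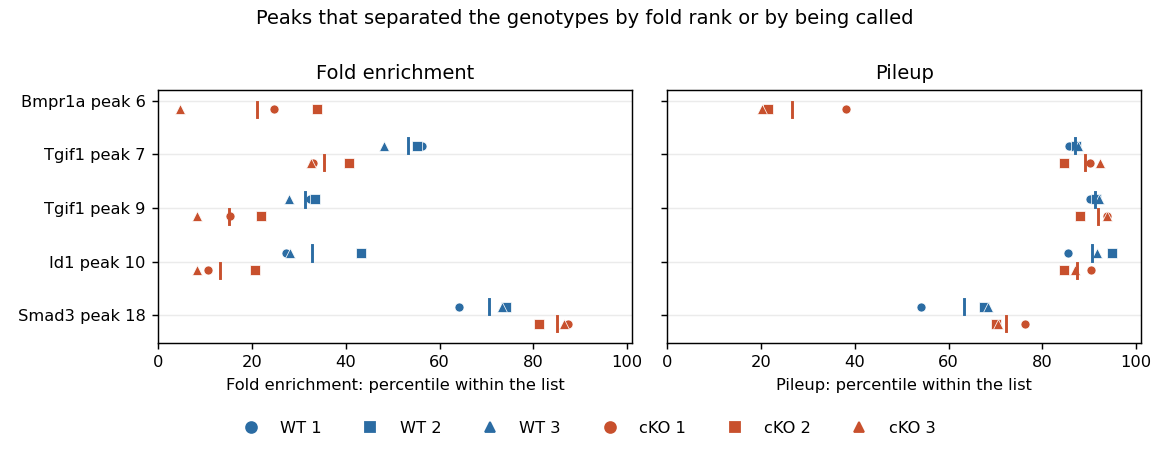
Within-list fold percentile (left) and pileup percentile (right) of the 5 peaks that separated the genotypes by fold rank or by being called, a marker per list (circle, square and triangle for lists 1, 2 and 3), WT in blue, cKO in orange, bars at the means. From the top they are the Bmpr1a intron peak, the Tgif1 intron and broad promoter peaks, the Id1 downstream peak and the Smad3 upstream peak. The Smad3 peak is separated in both panels, at 64.1 to 74.1 in WT and 81.2 to 87.3 in cKO on the left, and the Bmpr1a peak has cKO points only.

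Among the 28 distal peaks called in every list, the mean fold percentile was 41.1, 44.9 and 49.2 in WT and 41.3, 43.9 and 39.8 in cKO, with 17 of 28 lower in cKO. Over all 18104 distal peaks the difference had the opposite sign, 1.87 percentile points, beside -3.40 at the loci, and by coverage percentile the difference at the loci was 1.45. The highest distal peak of each gene, by median percentile, is given here for the 7 genes not described above, leaving out Tgfbr1, which had none.

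The Smad genes on chromosome 18 had strong distal peaks. An intronic Smad2 peak, 15983 bp downstream of the start, stood at 87.3, 78.7 and 92.1 in WT and 91.0, 80.9 and 83.0 in cKO, close to the Smad2 promoter. A peak 9498 bp upstream of Smad7 stood at 62.0, 81.1 and 91.9 in WT and 85.8, 85.1 and 85.0 in cKO, where the WT lists were far apart and the cKO lists close together. A peak past the 3′ end of Smad4 stood at 70.7, 75.8 and 85.4 in WT and 87.9, 70.2 and 80.2 in cKO. At all 3 the genotypes overlapped.

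The other genes had weaker or more variable distal peaks. Upstream of Tgfbr2, by 12143 bp, a peak stood at 60.3, 58.9 and 64.7 in WT and 46.4, 64.4 and 33.7 in cKO, with cKO 1 and cKO 3 again below WT. Upstream of Bmpr1a, in an intron of 9230112D13Rik, a peak stood at 24.7, 59.1 and 54.6 in WT and 44.0, 54.5 and 50.4 in cKO, with WT 1 lowest. The highest distal peak of Id3 lay 19965 bp upstream, at 54.1, 66.7 and 62.6 in WT and 68.0, 52.8 and 68.6 in cKO, and that of Tgif1 20005 bp upstream, at 71.1, 55.6 and 76.9 in WT and 67.5, 70.2 and 78.9 in cKO. None of these separated the genotypes.

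A pair of further Id3 peaks is named because limma gave p below 0.05 before adjustment, and they were chosen after their values were seen. The peak 4339 bp downstream of the Id3 start stood at 35.2, 44.4 and 34.8 in WT and 12.3, 37.3 and 5.01 in cKO, with cKO 2 inside the WT range, and its difference of -19.9 was the largest of the 44 (limma across all peaks, unadjusted p = 0.036, and exact permutation p = 0.3). The peak 2991 bp upstream stood at 21.9, 11.9 and 5.52 in WT and 1.05, 6.41 and 1.86 in cKO (limma across all peaks, unadjusted p = 0.0167, and exact permutation p = 0.2). Both had a limma adjusted p of 0.776, and the coverage percentiles of both overlapped between the genotypes.

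The member promoters were GC-rich. Median GC over the 201 bp around the summits was 71.6%, from 41.3% at Tgif1 to 81.1% at Bmpr1a, beside 65.2% over all promoter peaks, and the median peak width was 1540 bp beside 1309 bp. CAGAC was found in 5 of 10 member windows, beside 34.6% of all promoter windows, and GGCGCC in 5 of 10, beside 19.1%. The palindrome GTCTAGAC was in none of the 10, beside 0.0819% of all. In the 28 distal windows CAGAC was found in 12 (42.9%, beside 41.8% of all distal windows) and GGCGCC in 3 (10.7%, beside 3.40%).

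Letters that other factors bind were searched in the same windows, on both strands. For ARID3 proteins ATCAAA or ATTAAA was taken, which was in 0 of 10 member promoters (5.60% of all) and in 5 of 28 distal windows (17.9%, beside 18.6%). Those 5 lay at Smad2, Id3, Tgfbr2 and, in a pair, Tgif1, and each had overlapping genotypes. For the AP-1 motif TGACTCA, whose reverse complement is TGAGTCA, 1 of 10 promoters and 2 of 28 distal windows matched, beside 3.23% and 12.2%. The promoter was that of Tgfbr2, and the distal windows were the Id1 downstream peak and the highest distal peak of Id3. The broad Tgif1 promoter peak, outside the 10, also held 1 match. By fold, the Id1 and Tgif1 peaks were lower in cKO without overlap, and the Tgfbr2 and Id3 peaks overlapped. For HNF4, CAAAGTCCA or CAAAGTTCA matched 0 of 10 and 1 of 28, beside 0.833% and 4.14%. TGTCA, the core bound by TGIF proteins, matched 2 of 10 and 11 of 28, beside 22.2% and 38.1%.

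A further 37 genes of the pathways were examined at their promoters. A promoter peak was called in all 6 lists for 33, in none for Bmpr1b and Grem1, and in some lists for Bmp4 and Nog. Of the 33, 0 passed the limma test, 0 were higher in cKO without overlap and 5 (Bmp2, Bmp7, Acvr2a, Bmpr2 and Tgif2) were lower without overlap. Over all promoter peaks 3.48% were higher and 8.82% lower without overlap. Mean fold percentile was lower in cKO for 23 of 33 (69.7%), with a median difference of -3.79, beside 59.3% and -1.09 over all promoter peaks.

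By role, the ligands had 2 of 6 lower without overlap, the receptors 2 of 8, SMADs 0 of 4, inhibitors 0 of 7 and targets 1 of 8. Bmp7, a BMP ligand, stood at 84.8, 81.6 and 79.4 in WT and 76.1, 75.4 and 73.6 in cKO. Tgif2, the paralog of Tgif1, stood at 74.0, 66.9 and 64.2 in WT and 50.3, 63.4 and 41.8 in cKO (limma adjusted p = 0.776). For both genes every cKO list was below every WT list.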

How the data were processed

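ATAC-seq, which reads open chromatin, was run on 6 crypt samples, 3 WT and 3 cKO, grouped by their labels. The authors aligned reads to GRCm38 with nf-core/atacseq 1.2.1 and called narrow peaks in each sample with MACS2, without an input control. The deposited lists give, for each peak, a score, a fold enrichment over local background, and −log10 p and −log10 q values. The MACS2 version is not given in the sources used here. Normalised counts were not analysed here.

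Peaks outside chromosomes 1 to 19, X and Y were dropped, at most 0.227% of a list. Fold was ranked within each list, because fold depends on depth and on local background. Ranks were converted to normal scores and tested with limma 3.58.1 in R 4.3.3, two-sided, with Benjamini-Hochberg adjustment over all consensus peaks called in every list and a threshold of 0.05. For single values all relabellings of the samples were enumerated (exact permutation test, two-sided), so the smallest p is 0.1. Coverage at the summit and local background were solved from fold and p in Python 3.11.15. Promoter peaks were defined by overlap with the promoter window, a choice made after seeing the data. The scripts were tested on simulated data. Named peaks were, for each gene, the promoter and the distal peak of highest median percentile and every peak that separated the genotypes, and pathway genes were named where they separated the genotypes or lacked a promoter peak in some list. The members and lists were chosen with earlier results of these data known. Alternatives covered the caller threshold, list length, overlap, ranking column, ranks among shared peaks, scale, flank, promoter window, pairing and leaving out each sample.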

Additional observations from a re-analysis of the deposited data

How the results depend on the processing

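Limma called 0 of the peaks at the 10 loci under every alternative run, and before adjustment p was below 0.05 for 0 to 16 of them when 1 sample was left out (0 of 46 without cKO 3, beside 2.83% of all peaks, and 16 of 47, or 34.0%, without cKO 2, beside 15.1%). The count of 4 peaks whose fold percentiles did not overlap became 7 with a minimum −log10 q of 5. Of these, 3 were higher (7.89%) and 4 lower (10.5%), beside 4.39% and 6.24% of all peaks. With lists of equal length the count was 2, with 1 higher and 1 lower (2.5% each), beside 4.67% and 7.03%. It ranged from 5 to 26 when 1 sample was left out, and the 26 came without cKO 2 (4 higher and 22 lower, beside 17.3% and 20.9% of all peaks). It was 12 without WT 1, with shares given above, 5 without cKO 3, and 7 without WT 2, WT 3 or cKO 1. Higher and lower were 2.17% and 8.70% without cKO 3, beside 7.53% and 9.03% of all peaks. Without WT 2 they were 2.27% and 13.6%, beside 8.16% and 10.1%. Without WT 3 they were 6.82% and 9.09%, beside 13.2% and 10.9%. Without cKO 1 they were 4.55% and 11.4%, beside 6.41% and 10.9%. The count of 1 peak called in every list of one genotype and none of the other became 0 with a minimum −log10 q of 5. It was also 0 with lists of equal length. Over all consensus peaks the counts for cKO and WT were then 282 and 29 of 56741, and 265 and 146 of 53118. The count at the loci ranged from 1 to 3 when 1 sample was left out. Without WT 2 it was 3 of 94, 2 in cKO and 1 in WT, beside 661 and 220 of 69320 consensus peaks. Without cKO 2 it was 2 of 97, both in cKO, beside 1819 of 69810. The promoter difference of -9.01 percentile points became -1.02 when peaks were ranked by −log10 q and -0.0275 when ranked by coverage with the promoter peak of each gene chosen by coverage too (0.118 with the peaks chosen by fold), and ranged from -15.1 (without cKO 2) to -5.50 when 1 sample was left out. The distal difference of -3.40 became 0.379 by −log10 q and 1.45 by coverage, was -0.352 with a 50 kb flank, -5.53 with a 10 kb flank, -5.39 with lists of equal length, -2.13 with ranks among shared peaks and -1.09 with a minimum −log10 q of 5, and ranged from -5.21 to -1.31 when 1 sample was left out. The cause was not tested. The difference in promoter peaks per list, -0.667, became 0 with a promoter window of 500 bp either side, and ranged from -1 to -0.5. The difference in all peaks per list, -0.333, became 5 with a minimum −log10 q of 5, -3 with lists of equal length and 1 with a 50 kb flank. All peaks and distal peaks per list ranged from -5 to 3.67 and from -4.5 to 3.5 when 1 sample was left out. Ranking by coverage and the summit-based promoter class were chosen after seeing the data.

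The labels do not say whether same-numbered samples are paired. Deviations of same-numbered samples correlated at -0.272, -0.0186 and 0.125, and those of differently numbered samples at -0.328 to 0.308. With 3 samples a genotype, these values cannot settle whether a pairing exists. With the replicate block, limma called 0 peaks, and 12 peaks (2 higher, 4.55%, and 10 lower, 22.7%) differed in the same direction in all 3 same-numbered pairs, beside 11.4% and 15.7% of all peaks. With 3 samples a genotype and unknown depth, small differences were not detectable.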
